A study of Homo sapiens with 16 samples.

Results

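Macroautophagy encloses cytoplasm in a double membrane and delivers it to the lysosome, where hydrolases return amino acids to the cell. Here 37 human genes of this route were followed, namely cargo receptors, ATG8 proteins, the ULK and class III PI3K complexes, proteins of the growing membrane, the conjugation machinery, the MiT/TFE transcription factors and lysosomal proteins. They were chosen by name from a list, and 36 of the 37 had a row of their own among the 22464 genes with 1 symbol. VMP1, an endoplasmic reticulum protein needed for autophagosome formation, lay in a row shared with other symbols and was not tested.

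The cells were HepG2, a human hepatoma line, and the series asked how the kinase MEK shapes their answer when an essential amino acid is missing. All 4 groups were held for 1 h with DMSO, the solvent, or with PD98059, an inhibitor of MEK, and then for 8 h in complete DMEM or in DMEM lacking histidine, with the DMSO or inhibitor kept in the medium. The dose of PD98059 was 2.5 uM in the labelling protocol, which was followed here because some sample labels print another unit. Each group held 4 Affymetrix arrays, 1 from each of 4 independent incubations, and the groups are DMSO in complete medium, DMSO without histidine, PD98059 in complete medium and PD98059 without histidine. All come from 1 cell line, 1 dose and 1 time, and neither protein levels nor autophagic flux were measured.

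As background, amino acids hold the kinase complex mTORC1 active at the lysosome, where it phosphorylates the ULK1 complex and the MiT/TFE factors and so restrains autophagy. Amino acid loss also activates the kinase GCN2 and, through the transcription factor ATF4, raises transcription of stress genes, some autophagy genes among them. MiT/TFE factors bind a palindromic E-box in many lysosomal promoters, called the CLEAR element, and kinases of the MEK pathway are known to phosphorylate them.

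Values are log2 expression values as deposited, and differences are between group means with the standard error of the fit after ±. A gene is called higher or lower where limma's adjusted p, taken over all 22464 genes, was under 0.05. Most members with every array printed below were chosen among called members without overlap in a comparison. For them such a lack of overlap follows from the choice. Within groups the members varied little, with SDs from 0.00553 to 0.11 and a median of 0.0377 (n = 4). Array medians lay between 6.197 and 6.281. Of 8 hepatocyte markers 7 had a row, all above the median of all values (6.22), with the highest group mean at 13.68 (APOB without histidine, DMSO). Their summed log2 level did not overlap between the media, at 76.2 to 76.5 with DMSO in complete medium against 75.4 to 75.8 without histidine, and at 76.9 to 77.2 with PD98059 in complete medium against 75.9 to 76.5 without histidine. Of 8 markers of leukocytes, endothelium, fibroblasts and squamous epithelium 7 had a row, with 4 above that median and a highest group mean of 7.98 (COL1A1). The summed log2 level of these other-cell markers was 42.6 to 43.1 with DMSO in complete medium, 43.1 to 43.5 with DMSO without histidine, 42.9 to 43.1 with PD98059 in complete medium and 42.8 to 43.8 with PD98059 without histidine, and the part of either marker sum in the results was not tested. The third PD98059 array without histidine lay away from its group, by 0.111 in root mean square against 0.0496 to 0.0760 for all other arrays, and was the highest or lowest of its group in 27 of the 36 members, against 8 to 25 for the other arrays.

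The promoters of the members were searched for binding sequences of the MiT/TFE factors, of ATF4 and of some other factors, with earlier results of these data known. RefSeq promoter sequences (build GRCh38.p14, 250 bases before to 50 after the start) matched 33 of the 37 members, and UVRAG, LAMP2, CTSB and ATP6V1H were not matched. The CLEAR core TCACGTGA, searched on both strands, was held by 4 of the 33 members (12.1%) against 1.18% of 27305 genes. The following windows show these matches in capitals, because these are the letters MiT/TFE factors are known to bind.
ATG3, chr3:112561941-112561968, minus strand: gagtctagtgTCACGTGAggccccggtg
LAMP1, chr13:113297200-113297227, plus strand: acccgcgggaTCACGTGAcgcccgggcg
LAMP1, chr13:113297227-113297254, plus strand: gcggcgcagcTCACGTGAcaagcgctgc
MCOLN1, chr19:7522572-7522599, plus strand: ccagaggcggTCACGTGAggggctctgg
MCOLN1, chr19:7522599-7522626, plus strand: ggctaccgggTCACGTGAccgaggcaca
ATP6V0D1, chr16:67481200-67481227, minus strand: ccccttatggTCACGTGAggcgcttgcg

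The shorter E-box CACGTG, which every CLEAR core contains, was held by those 4 members and by ATG14 and CTSD (18.2% against 8.77% of genes). The C/EBP-ATF response element core TGATGNAA was in 0 of the 33 promoters against 4.46% of genes, which says only that these letters are not in these windows. The AP-1 site TGANTCA, which is read by factors downstream of MEK, was in the promoter of TFE3 alone (3.03% against 9.37%). The antioxidant response element core TGACNNNGC was in 6 members, ATG101, ATP6V0D1, CTSD, CTSL, LAMP1 and MAP1LC3B (18.2% against 16.1%). The cAMP response element TGACGTCA, a motif added after the sequences and values had been seen, was in GABARAPL1 and MITF (6.06% against 2.25%). Printed here are the windows of TFE3 and GABARAPL1, and the 250 bases before the start of MAP1LC3B, since these members had 3 of the larger responses to depletion. The AP-1 site, the cAMP response element and the antioxidant response element core stand in capitals in that order. A match describes the letters and shows no binding. Among the holders of these 3 motifs that are not printed, depletion with DMSO raised ATG101 and CTSL and lowered ATP6V0D1. MITF, CTSD and LAMP1 were not called in that comparison.
TFE3, chrX:49043383-49043409, minus strand: gggcgggggaTGACTCAcagcccatcc
GABARAPL1, chr12:10212837-10212864, plus strand: gctcgcggggTGACGTCAcagcccgacg
MAP1LC3B, chr16:87392086-87392335, plus strand: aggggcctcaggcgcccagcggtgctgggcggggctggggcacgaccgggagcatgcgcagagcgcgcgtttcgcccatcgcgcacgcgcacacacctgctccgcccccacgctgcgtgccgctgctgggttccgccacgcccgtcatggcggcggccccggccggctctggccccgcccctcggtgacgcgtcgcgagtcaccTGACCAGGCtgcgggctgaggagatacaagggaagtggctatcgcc

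Histidine depletion with DMSO moved members of this route in both directions. MAP1LC3B and TFE3 had the largest rises, at 1.94-fold and 1.47-fold, followed by GABARAPL1, ULK1 and SQSTM1, while GABARAPL2, WIPI1, NBR1, DRAM1 and ATP6V0D1 fell. In all 19 of 36 members were called, 11 higher and 8 lower, where 33.3% of all genes were called, 14.8% higher and 18.4% lower. The shares over all genes, here and below, include dim genes. The measured members except ULK2 and MITF lay above the median of all values (6.22), and shares over brighter genes alone are not given. Of the 7 measured other-cell markers 4 lay above it too, COL1A1 with a highest group mean of 7.98. OPTN, ATG7, ATG12, TFEB and ATP6V1H had every group mean below 7.98, and GABARAPL1 all but that of DMSO without histidine. Background signal may therefore be part of their values, which was not tested. The median difference of the members was 0.023, beside 0.026 over all genes. In 24 members no array of one group reached the other group, against 41.4% of all genes.

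With PD98059 present, depletion left MAP1LC3B, UVRAG, TFE3 and SQSTM1 among the members that rose, and GABARAPL2, WIPI1, DRAM1 and NBR1 among those that fell. The called members were 18, with 6 higher and 12 lower, where 27.4% of all genes were called, 12% higher and 15.3% lower. Their median difference was -0.031 against 0.003 over all genes, and 16 members had arrays that did not overlap, against 25.1% of all genes. These depletion comparisons share no arrays. Called higher in both were 4 members, SQSTM1, MAP1LC3B, UVRAG and TFE3, beside 8.98% of all genes. Called lower in both were 8, NBR1, GABARAP, GABARAPL2, WIPI1, WIPI2, DRAM1, LAMP2 and ATP6V0D1, beside 12.4% of all genes. ATG2A was called higher with DMSO and lower with PD98059.

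PD98059 in complete medium changed fewer members, with WIPI1 lowest of all at 1.38-fold lower. The called members were 10, with 6 higher and 4 lower, where 14.3% of all genes were called, 7.59% higher and 6.74% lower. The median difference was 0.029 against 0.014 over all genes, and 13 members did not overlap, against 21.8% of all genes. Besides WIPI1, the members called lower were SQSTM1, ATG101 and ATG16L1, and those called higher were NBR1, GABARAP, ULK1, WIPI2, DRAM1 and ATP6V0D1.

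PD98059 in histidine-depleted medium lowered WIPI1, MAP1LC3B, TFE3, SQSTM1 and ATG101 by 1.26 to 1.48-fold. The called members were 18, of which 4 were higher (NBR1, GABARAP, ATG14 and ATP6V0D1) and 14 lower, where 24.4% of all genes were called, 13.5% higher and 10.9% lower. The median difference was -0.046 against -0.006 over all genes, and 17 members did not overlap, against 23.3%. This comparison and depletion with DMSO share the DMSO arrays without histidine, so their values stand side by side and are not counted against each other. Sizes were small throughout, since 1 member reached a 1.5-fold difference in any of the 4 comparisons, and 2.34% of all genes did.

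**Figure D1:**
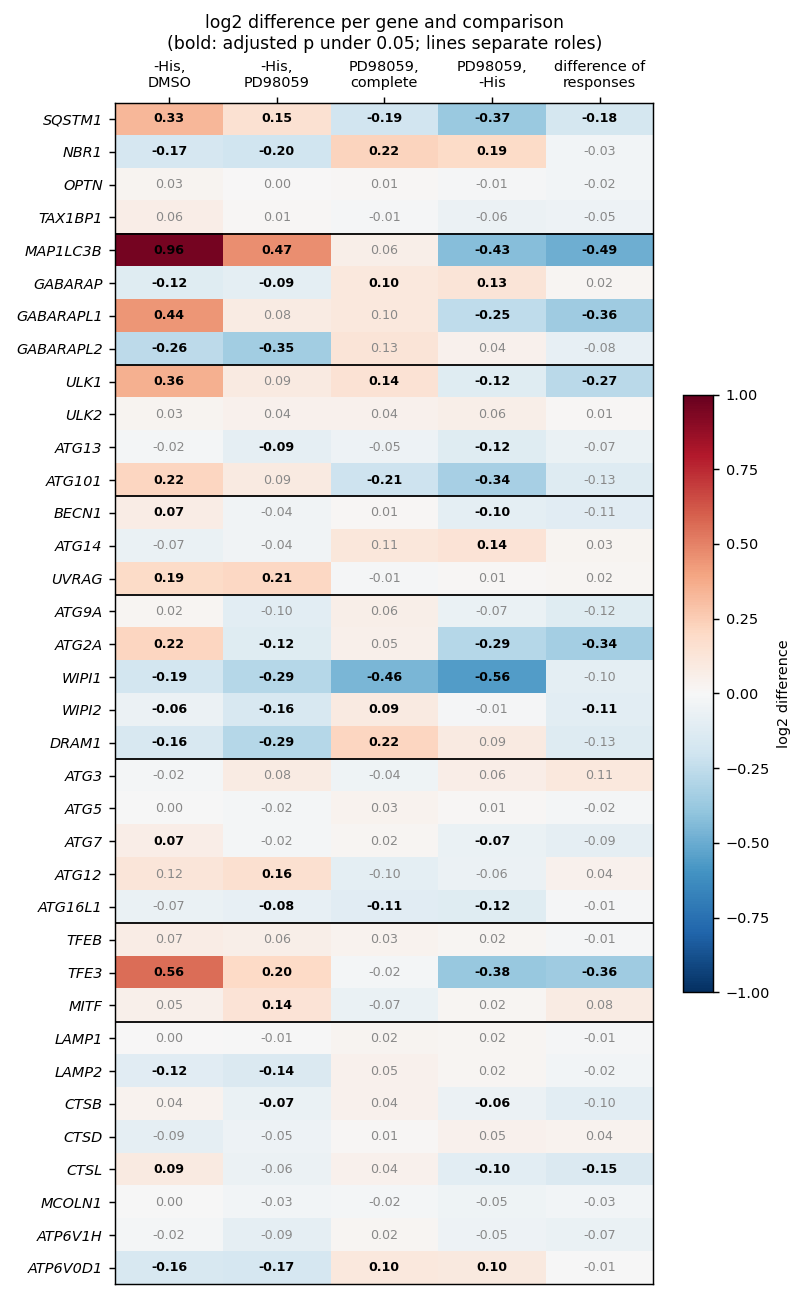
Log2 differences of the 36 measured members (rows, by role) in the 4 single comparisons and in the difference of responses (columns), printed in each cell and coloured red for higher and blue for lower, in bold where limma's adjusted p was under 0.05. MAP1LC3B (0.96 for depletion with DMSO) and WIPI1 (-0.56 for PD98059 without histidine) lie farthest from 0.

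Cargo receptors bind ubiquitylated proteins or organelles and the ATG8 proteins at once, and they are themselves degraded by autophagy. SQSTM1, the receptor p62, read 9.31, 9.29, 9.31 and 9.31 with DMSO in complete medium and 9.65, 9.61, 9.65 and 9.63 without histidine. Its PD98059 values were 9.10, 9.15, 9.12 and 9.10 in complete medium and 9.26, 9.24, 9.33 and 9.24 without histidine. Every DMSO array without histidine lay above every other array, and the PD98059 arrays in complete medium were the lowest. SQSTM1 rose by 0.33 ± 0.0242 with depletion in DMSO (1.26-fold, adjusted p = 1.69e-08) and by 0.15 ± 0.0242 with depletion in PD98059 (adjusted p = 0.000127). PD98059 changed it by -0.19 in complete medium (adjusted p = 3.87e-05) and by -0.37 without histidine (adjusted p = 9.86e-09).

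NBR1, a receptor with an ATG8-binding motif like that of p62, moved the other way. It read 9.39, 9.24, 9.30 and 9.34 with DMSO in complete medium and 9.16, 9.16, 9.14 and 9.14 without histidine. Under the inhibitor the arrays gave 9.59, 9.54, 9.49 and 9.53 in complete medium and 9.39, 9.36, 9.26 and 9.34 without histidine. The depleted arrays lay below the complete ones under either treatment. The depletion difference was -0.17 ± 0.0339 with DMSO (adjusted p = 0.000814) and -0.20 ± 0.0339 with PD98059 (adjusted p = 0.000239), and PD98059 raised it by 0.22 in complete and 0.19 in depleted medium. OPTN and TAX1BP1, receptors in the clearance of mitochondria and bacteria, were not called in any comparison, with differences between -0.06 and 0.06.

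ATG8 proteins are coupled to the lipid phosphatidylethanolamine on the growing membrane, and LC3B, the product of MAP1LC3B, is the usual marker of autophagosomes. MAP1LC3B read 10.87, 10.88, 10.90 and 10.87 with DMSO in complete medium and 11.90, 11.82, 11.80 and 11.83 without histidine. PD98059 arrays read 11.0, 10.93, 10.91 and 10.92 in complete medium and 11.38, 11.46, 11.38 and 11.42 without histidine. No pair of groups overlapped, and the PD98059 arrays without histidine lay between the complete arrays and the DMSO arrays without histidine. It rose by 0.96 ± 0.0289 with DMSO (1.94-fold, adjusted p = 4.34e-13) and by 0.47 ± 0.0289 with PD98059 (1.38-fold, adjusted p = 4.15e-09). PD98059 lowered it 1.35-fold without histidine (-0.43, adjusted p = 1.32e-08), while in complete medium its difference of 0.06 was not called (adjusted p = 0.22). MAP1LC3B2, a near-identical copy that may share probes with it, was called in the same comparisons, at 0.57, 0.33 and -0.23, so the level of MAP1LC3B alone is uncertain.

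GABARAPL1 belongs to the GABARAP branch of the family, which acts late in autophagosome closure and fusion. It read 7.83, 7.71, 7.82 and 7.75 with DMSO in complete medium and 8.26, 8.24, 8.17 and 8.19 without histidine. With PD98059 it read 7.95, 7.86, 7.87 and 7.85 in complete medium and 8.03, 7.95, 7.96 and 7.92 without histidine. The DMSO arrays without histidine stood above the other groups, and the PD98059 groups overlapped. It rose by 0.44 ± 0.0346 with DMSO (1.36-fold, adjusted p = 3.96e-08), whereas the 0.08 ± 0.0346 with PD98059 was not called (adjusted p = 0.0951). Without histidine PD98059 changed it by -0.25 (adjusted p = 3.57e-05). GABARAPL3, a near-identical copy, was called only for depletion with DMSO among the 5 comparisons, at 0.14 (adjusted p = 0.0101), and the signals of such copies could not be separated here.

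GABARAPL2, also called GATE-16, fell. It read 10.73, 10.57, 10.58 and 10.56 with DMSO in complete medium and 10.28, 10.38, 10.38 and 10.36 without histidine. Its PD98059 values were 10.81, 10.74, 10.75 and 10.66 in complete medium and 10.47, 10.45, 10.26 and 10.40 without histidine. Depleted arrays lay below complete ones in both treatments, although replicate 1 of DMSO in complete medium was far above its group. The difference was -0.26 ± 0.0489 with DMSO (adjusted p = 0.000444) and -0.35 ± 0.0489 with PD98059 (adjusted p = 3.99e-05), and PD98059 gave no called difference in either medium. GABARAP itself, at a group mean of 12.31 with DMSO in complete medium, changed by -0.12 with DMSO and -0.09 with PD98059, and PD98059 raised it by 0.10 in complete and 0.13 in depleted medium. With every array shifted to the same median, the rise in complete medium was not called (0.095, adjusted p = 0.093).

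**Figure D2:**
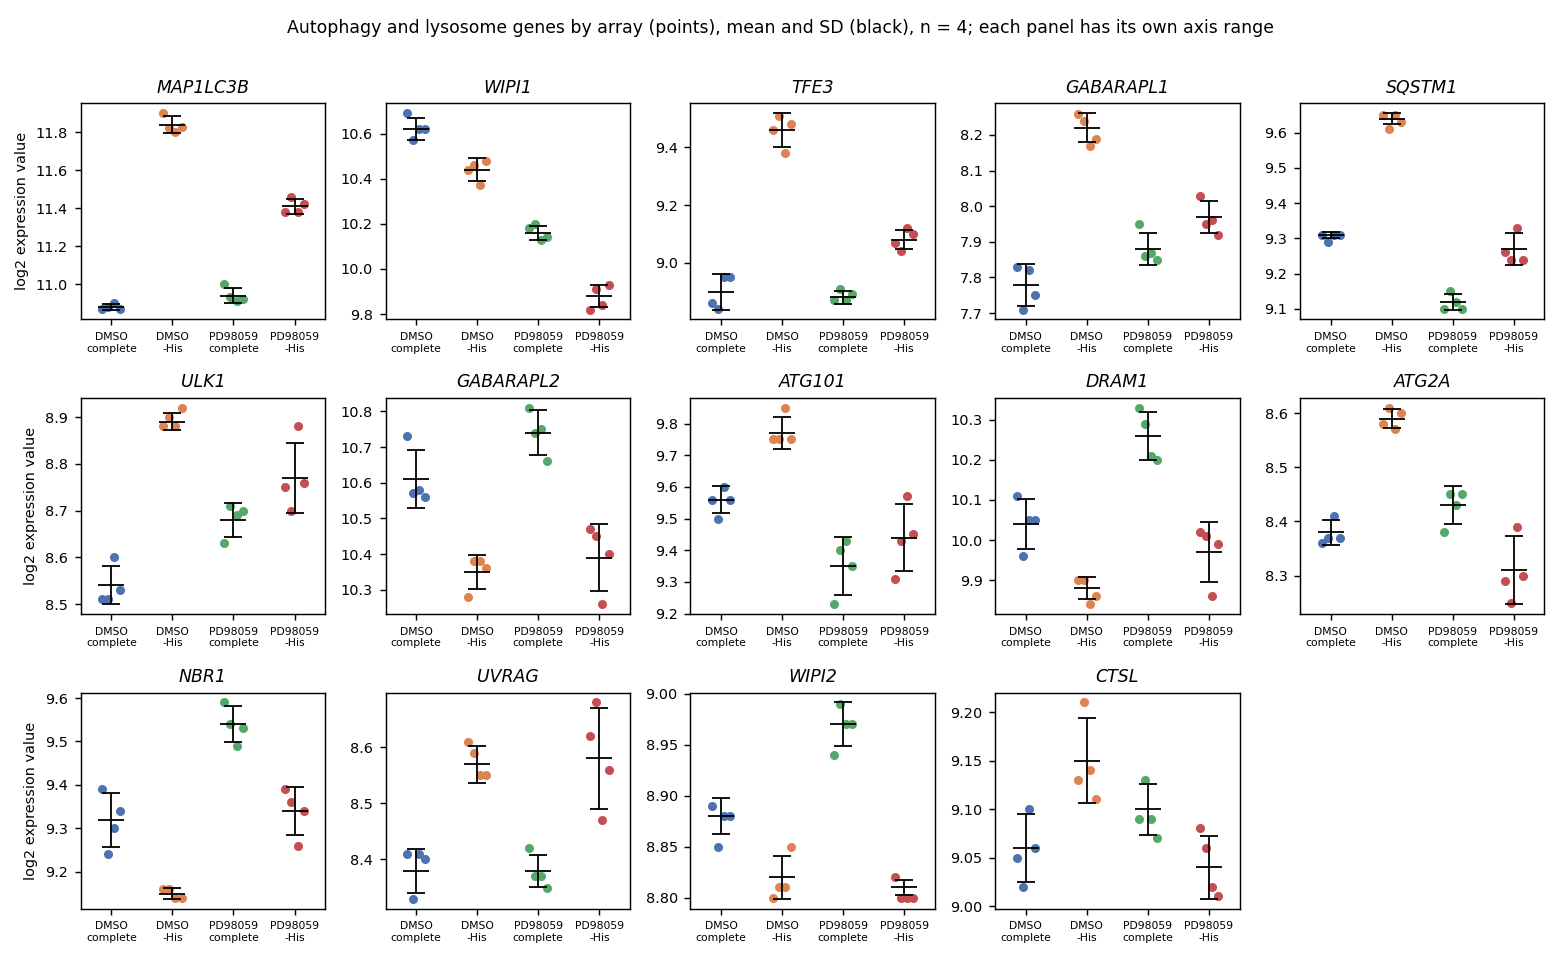
Log2 expression values of each array (points) in the 4 groups for the 14 members with every array given in the text, with the group mean and SD in black (n = 4) and an axis range of its own in each panel. For MAP1LC3B the DMSO arrays without histidine lie between 11.80 and 11.90 and the PD98059 arrays without histidine between 11.38 and 11.46.

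The ULK complex starts autophagy and is the direct target of mTORC1. ULK1, its kinase, read 8.51, 8.51, 8.60 and 8.53 with DMSO in complete medium and 8.88, 8.90, 8.88 and 8.92 without histidine. Under the inhibitor the arrays gave 8.63, 8.71, 8.69 and 8.70 in complete medium and 8.75, 8.70, 8.88 and 8.76 without histidine. The PD98059 groups overlapped each other, and the complete DMSO arrays lay below all other arrays. ULK1 rose by 0.36 ± 0.0343 with depletion in DMSO (1.28-fold, adjusted p = 3.83e-07), and with PD98059 the difference was 0.09 ± 0.0343 (adjusted p = 0.0616). PD98059 raised it by 0.14 in complete medium (adjusted p = 0.00879) and changed it by -0.12 without histidine (adjusted p = 0.0132). In a fit of those 8 arrays alone the latter was not called (-0.12, adjusted p = 0.0585).

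ATG101, which steadies the ATG13 subunit, read 9.56, 9.50, 9.60 and 9.56 with DMSO in complete medium and 9.75, 9.75, 9.85 and 9.75 without histidine. PD98059 arrays read 9.23, 9.40, 9.43 and 9.35 in complete medium and 9.31, 9.43, 9.57 and 9.45 without histidine. The inhibitor arrays lay below the DMSO arrays of the same medium, and the PD98059 groups overlapped. ATG101 rose by 0.22 ± 0.0509 with DMSO (adjusted p = 0.00309), and PD98059 changed it by -0.21 in complete medium (adjusted p = 0.0108) and -0.34 without histidine (adjusted p = 9.69e-05). ATG13, the subunit that mTORC1 phosphorylates, changed by -0.09 with depletion in PD98059 (adjusted p = 0.0282) and by -0.12 with PD98059 without histidine (adjusted p = 0.00564). ULK2, the kinase related to ULK1, was at group means of 5.08 to 5.16, under the median of all values, and was not called.

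The class III PI3K complexes make the lipid PI3P on the new membrane, with BECN1 in all of them, ATG14 in the one that starts autophagy and UVRAG in the one that acts on endosomes. UVRAG read 8.41, 8.33, 8.41 and 8.40 with DMSO in complete medium and 8.61, 8.59, 8.55 and 8.55 without histidine. With PD98059 it read 8.42, 8.37, 8.37 and 8.35 in complete medium and 8.62, 8.68, 8.47 and 8.56 without histidine. The depleted arrays were higher in both treatments with no overlap, and the PD98059 and DMSO arrays of a medium overlapped. UVRAG rose by 0.19 ± 0.0378 with DMSO (adjusted p = 0.000819) and by 0.21 ± 0.0378 with PD98059 (adjusted p = 0.000437). BECN1 rose by 0.07 with DMSO (adjusted p = 0.036) and PD98059 changed it by -0.10 without histidine (adjusted p = 0.011), and ATG14 had 1 call, 0.14 higher with PD98059 without histidine (adjusted p = 0.0475).

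Proteins of the growing membrane bind PI3P, move lipid into it or scramble its leaflets. WIPI1, a PI3P-binding protein, read 10.69, 10.57, 10.62 and 10.62 with DMSO in complete medium and 10.44, 10.46, 10.37 and 10.48 without histidine. Its PD98059 values were 10.18, 10.20, 10.13 and 10.14 in complete medium and 9.82, 9.91, 9.84 and 9.93 without histidine. The 4 groups stood in that order with no overlap. WIPI1 fell in each of the 4 comparisons. The difference was -0.19 ± 0.0335 (adjusted p = 0.000313) with depletion in DMSO and -0.29 ± 0.0335 (adjusted p = 5.39e-06) with depletion in PD98059. PD98059 changed it by -0.46 in complete medium (1.38-fold, adjusted p = 9.69e-08) and -0.56 without histidine (1.48-fold, adjusted p = 3.28e-09).

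WIPI2, which recruits the ATG16L1 complex to PI3P, read 8.89, 8.85, 8.88 and 8.88 with DMSO in complete medium and 8.80, 8.81, 8.81 and 8.85 without histidine. Under the inhibitor the arrays gave 8.94, 8.99, 8.97 and 8.97 in complete medium and 8.82, 8.80, 8.80 and 8.80 without histidine. The group means spanned only 8.81 to 8.97. Depletion changed WIPI2 by -0.16 ± 0.0209 with PD98059 (adjusted p = 1.33e-05) and by -0.06 ± 0.0209 with DMSO (adjusted p = 0.0438), and PD98059 raised it by 0.09 in complete medium (adjusted p = 0.00544).

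ATG2A carries lipid into the membrane, and its response to depletion had opposite signs in the 2 treatments. It read 8.36, 8.37, 8.41 and 8.37 with DMSO in complete medium and 8.58, 8.61, 8.57 and 8.60 without histidine. PD98059 arrays read 8.38, 8.45, 8.43 and 8.45 in complete medium and 8.29, 8.25, 8.39 and 8.30 without histidine. The DMSO groups did not overlap, and the PD98059 groups did. ATG2A rose by 0.22 ± 0.0299 with DMSO (adjusted p = 2.01e-05) and changed by -0.12 ± 0.0299 with PD98059 (adjusted p = 0.00497). PD98059 without histidine changed it by -0.29 (adjusted p = 1.93e-06). In a fit of the PD98059 arrays alone the fall with depletion was not called (-0.12, adjusted p = 0.051).

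DRAM1, a p53-induced lysosomal membrane protein, read 10.11, 9.96, 10.05 and 10.05 with DMSO in complete medium and 9.90, 9.90, 9.84 and 9.86 without histidine. With PD98059 it read 10.33, 10.29, 10.21 and 10.20 in complete medium and 10.02, 10.01, 9.86 and 9.99 without histidine. Depleted arrays lay below complete ones in both treatments. Depletion changed it by -0.16 ± 0.0407 with DMSO (adjusted p = 0.0046) and -0.29 ± 0.0407 with PD98059 (adjusted p = 3.75e-05), and PD98059 raised it by 0.22 in complete medium (adjusted p = 0.00134). ATG9A, the lipid scramblase carried by vesicles, was not called, with differences from -0.10 to 0.06.

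The conjugation machinery couples ATG8 proteins to lipid, with ATG7 as the activating enzyme, ATG3 as the conjugating enzyme and ATG12, ATG5 and ATG16L1 as the last step. It changed little. ATG16L1 changed by -0.11 with PD98059 in complete medium (adjusted p = 0.0116) and -0.12 without histidine (adjusted p = 0.00313), and by -0.08 with depletion in PD98059 (adjusted p = 0.0447). ATG7 rose by 0.07 with depletion in DMSO (adjusted p = 0.0242), and PD98059 changed it by -0.07 without histidine (adjusted p = 0.0324). ATG12 rose by 0.16 with depletion in PD98059 (adjusted p = 0.0179). ATG3, with a CLEAR core in its promoter, and ATG5 were not called in any comparison, with differences from -0.04 to 0.08.

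The MiT/TFE factors drive lysosomal and autophagy genes once they are released into the nucleus, which a transcript level does not show. TFE3 read 8.86, 8.84, 8.95 and 8.95 with DMSO in complete medium and 9.46, 9.51, 9.38 and 9.48 without histidine. Its PD98059 values were 8.87, 8.91, 8.87 and 8.89 in complete medium and 9.07, 9.04, 9.12 and 9.10 without histidine. The PD98059 arrays without histidine lay between the complete arrays and the DMSO arrays without histidine. TFE3 rose by 0.56 ± 0.0344 with DMSO (1.47-fold, adjusted p = 2.14e-09) and by 0.20 ± 0.0344 with PD98059 (1.15-fold, adjusted p = 0.000291), and PD98059 changed it by -0.38 without histidine (adjusted p = 4.58e-07). Its complete arrays overlapped between treatments, with a difference of -0.02 (adjusted p = 0.85). TFEB, the best known of these factors, was not called, with differences from 0.02 to 0.07 and adjusted p values from 0.142 to 0.75 over the 4 single comparisons. MITF, the member best known from pigment cells, was at group means of 5.69 to 5.83, under the median of all values, and rose by 0.14 with depletion in PD98059 (adjusted p = 0.000404).

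The 8 members listed as lysosomal proteins showed small differences, at most 0.17 in size in the 4 single comparisons. DRAM1, grouped above with proteins of the growing membrane, is not among them and reached -0.29. CTSL, a cysteine protease, read 9.05, 9.02, 9.10 and 9.06 with DMSO in complete medium and 9.13, 9.21, 9.14 and 9.11 without histidine. Under the inhibitor the arrays gave 9.09, 9.13, 9.09 and 9.07 in complete medium and 9.08, 9.06, 9.02 and 9.01 without histidine. The DMSO groups did not overlap, and the PD98059 groups did. CTSL rose by 0.09 ± 0.028 with DMSO (adjusted p = 0.0197), and PD98059 changed it by -0.10 without histidine (adjusted p = 0.0103).

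ATP6V0D1, a subunit of the proton pump that acidifies the lysosome, changed by -0.16 ± 0.0294 with DMSO (adjusted p = 0.000371) and -0.17 ± 0.0294 with PD98059 (adjusted p = 0.00033), and PD98059 raised it by 0.10 in each medium (adjusted p = 0.0237 and 0.0216). LAMP2, a membrane protein of the lysosome, changed by -0.12 with DMSO (adjusted p = 0.0405) and -0.14 with PD98059 (adjusted p = 0.0169). CTSB, a cysteine protease, changed by -0.07 with depletion in PD98059 (adjusted p = 0.0235) and by -0.06 with PD98059 without histidine (adjusted p = 0.04). LAMP1, the aspartic protease CTSD, the calcium channel MCOLN1 and the pump subunit ATP6V1H were not called. Of the 4 members with a CLEAR core, ATP6V0D1 was lower with depletion in DMSO, and ATG3, LAMP1 and MCOLN1 differed by -0.02, 0.00 and 0.00. Over the 241 tested genes that hold the core, 22.0% were higher and 28.6% lower in that comparison, beside 16.8% and 20.6% of the genes whose promoters lack it. For the AP-1 site these shares were 17.1% and 14.9%, beside 16.9% and 21.2%. The antioxidant response element core had 17.5% and 22.9%, beside 16.8% and 20.2%. For the E-box they were 20.5% and 22.1%, beside 16.5% and 20.5%. The C/EBP-ATF response element core had 19.5% and 13.1%, beside 16.8% and 21.0%. The cAMP response element, the motif added later, had 27.1% and 20.7%, beside 16.6% and 20.7%. None of these shares was tested.

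The response to depletion differed between treatments, by the test of the difference itself (response with PD98059 minus response with DMSO), in 8 members, each with a value below 0, where 5.74% of all genes were called, 2.91% higher and 2.83% lower. MAP1LC3B had the largest difference, -0.49 ± 0.0409 (adjusted p = 2.6e-06). GABARAPL1 and TFE3 each differed by -0.36 (adjusted p = 0.000303 and 0.000266). ATG2A differed by -0.34 (adjusted p = 0.000132) and ULK1 by -0.27 (adjusted p = 0.00334). SQSTM1 differed by -0.18 (adjusted p = 0.00488), CTSL by -0.15 (adjusted p = 0.041) and WIPI2 by -0.11 (adjusted p = 0.0454). In the first 6 of these the rise with DMSO was smaller, not called or turned to a fall with PD98059, in CTSL the PD98059 response of -0.06 was not called, and WIPI2 fell more with PD98059. The value was below 0 in 28 of the 36 members, where 58.5% of all genes were below 0, and 24 members lay below the median of all genes. The median was -0.059 for the members and -0.016 over all genes. MAP1LC3B2 differed by -0.24 (adjusted p = 0.00353).

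**Figure D3:**
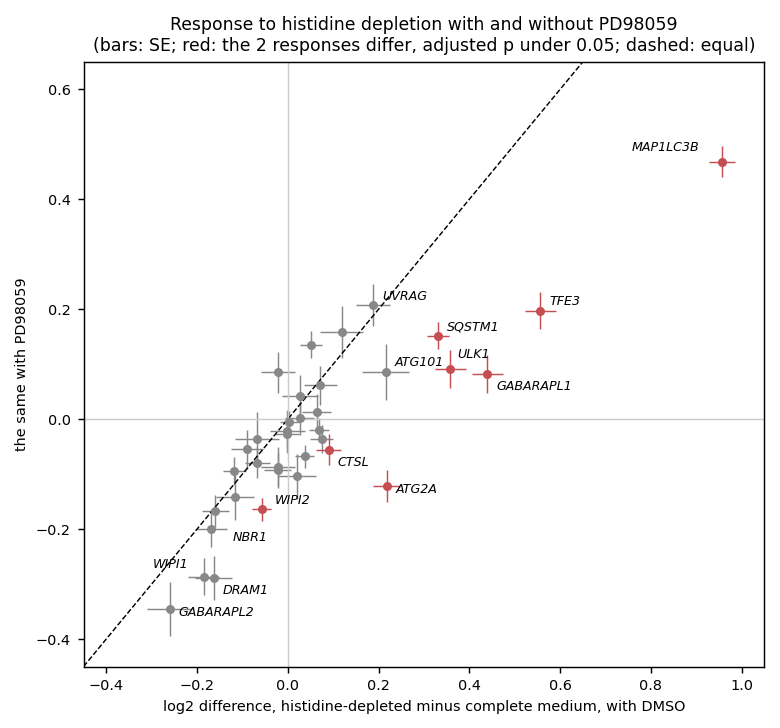
Log2 response of each of the 36 measured members to histidine depletion with DMSO (x axis) against that with PD98059 (y axis), with SE bars and a dashed line of equal response. The 8 members whose responses differed at limma's adjusted p under 0.05 are red, and MAP1LC3B lies at 0.96 and 0.47.

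Some of the smaller calls were lost when an array was left out, most of them for more than 1 choice of array. Of the 73 calls over the 5 comparisons, 17 were lost when 1 of the 16 arrays was left out, and all of them had differences of 0.159 or less in size. For depletion with DMSO, CTSL did not hold without array 2 of either DMSO group (0.069 to 0.078). ATG7 did not hold without array 2 or 3 in complete or array 1 or 2 in depleted medium of the DMSO cells (0.062 to 0.068). BECN1 did not hold without array 2, 3 or 4 in complete or any array in depleted medium of the DMSO cells (0.064 to 0.078). WIPI2 (-0.058 to -0.052) did not hold without array 1, 3 or 4 in complete or 1, 2 or 3 in depleted medium of the DMSO cells, replicate 3 or 4 of PD98059 in complete medium or replicate 4 of PD98059 without histidine. LAMP2 (-0.125 to -0.107) did not hold without array 1, 3 or 4 in complete or any array in depleted medium of the DMSO cells, or replicate 4 of either PD98059 group.

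For depletion with PD98059, LAMP2 was lost without replicate 1 of PD98059 in complete medium (-0.126). ATG12 was lost without replicate 3 of PD98059 in complete medium or replicate 2 or 4 without histidine (0.125 to 0.141). ATG13 was lost without replicate 2 or 3 of PD98059 in complete medium or replicate 1 or 3 without histidine (-0.086 to -0.067). CTSB (-0.067 to -0.062) was lost without replicate 2, 3 or 4 of PD98059 in complete medium or replicate 1, 2 or 4 without histidine. ATG16L1 (-0.083 to -0.065) was kept without array 1 or 2 of the DMSO cells in complete medium, replicate 1 or 4 of PD98059 in complete medium or replicate 2 of PD98059 without histidine, and was lost without any other array. For PD98059 in complete medium, ATP6V0D1 did not hold without DMSO array 1 or 2 or PD98059 array 2 or 3 (0.094 to 0.102).

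For PD98059 without histidine, ATG7 was lost without replicate 1 or 2 of DMSO or replicate 4 of PD98059 in that medium (-0.063 to -0.061). ATP6V0D1 was lost without replicate 1 or 3 of DMSO or replicate 2 or 4 of PD98059 in that medium (0.089 to 0.091). ATG14 (0.103 to 0.146) was kept without replicate 4 of DMSO without histidine, replicate 1, 2 or 3 of PD98059 in complete medium or replicate 2 or 3 of PD98059 without histidine, and was lost without any other array. CTSB (-0.063 to -0.053) was kept without replicate 2 of DMSO in complete medium, replicate 1 of DMSO without histidine, replicate 1 of PD98059 in complete medium or replicate 3 of PD98059 without histidine, and was lost without any other array. For the difference of responses, WIPI2 (-0.112 to -0.096) was kept without replicate 1 of PD98059 in complete medium or replicate 3 of PD98059 without histidine, and CTSL (-0.153 to -0.125) without replicate 3 of DMSO in complete medium, replicate 4 of DMSO without histidine or replicate 1 or 3 of PD98059 without histidine. Both were lost without any other array. A further 8 calls held without any single array but not under another setting. They were ATG101 and ATG16L1 for PD98059 in complete medium, BECN1, CTSL and ULK1 for PD98059 without histidine, GABARAP for PD98059 in complete medium and for depletion with PD98059, and ATG2A for depletion with PD98059. Without replicate 3 of PD98059 without histidine, the array far from its group, the counts of called members were 23 and 18 for depletion with DMSO and PD98059, 12 and 20 for PD98059 in complete and depleted medium, and 9 for the difference of responses.

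Other genes of the route were read from the same fit by lists, beside the share of all genes already given. Among 34 measured other autophagy genes, depletion with DMSO raised 8 and lowered 9. WDR45, a PI3P-binding relative of the WIPI proteins, rose by 0.43 ± 0.0267 (adjusted p = 2.2e-09), and SH3GLB1, a membrane-bending partner of UVRAG, by 0.53 ± 0.0377 (adjusted p = 1.1e-08). BNIP3, a mitophagy receptor, changed by -0.51 (adjusted p = 2.64e-09) and PIK3R4, the VPS15 subunit of the class III PI3K complexes, by -0.50 (adjusted p = 1.98e-08). With PD98059, depletion raised 6 and lowered 9 of these genes, SH3GLB1 by 0.55 and PIK3R4 by -0.50. The response of WDR45 differed between treatments by -0.34 (adjusted p = 5.31e-05) and that of ATG4C by 0.30 (adjusted p = 0.0339). Of the 34 genes, 1 had a called difference of responses above 0 and 3 had one below 0. PD98059 without histidine raised 6 and lowered 7 of them. PD98059 in complete medium raised 3 and lowered 2, among them DEPP1 at -0.45 (adjusted p = 1.28e-06) and TP53INP1, a stress protein that binds ATG8 proteins, at 0.37 (adjusted p = 7e-07).

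Among 19 other subunits of the V-ATPase, the proton pump, depletion with DMSO raised 1 and lowered 8, and depletion with PD98059 raised 1 and lowered 11. ATP6V1F changed by -0.41 and -0.33 in these comparisons (adjusted p = 1.6e-07 and 2.79e-06), and ATP6V0A2 rose by 0.22 and 0.44 (adjusted p = 3e-05 and 2.6e-08). Among 30 other lysosomal hydrolases, depletion with DMSO raised 1 and lowered 9 and depletion with PD98059 raised 1 and lowered 14. LIPA, the acid lipase, changed by -0.54 and -0.38 (adjusted p = 6.28e-09 and 7.16e-07), and NEU1, a sialidase, by -0.24 and -0.27 (adjusted p = 8.57e-07 and 3.67e-07). PD98059 in complete medium raised 9 hydrolases and lowered 2, with NEU1 higher by 0.23 (adjusted p = 5.34e-06) and ARSB, a sulfatase, lower by -0.27 (adjusted p = 1.02e-05). Without histidine PD98059 raised 2 and lowered 5 of the V-ATPase subunits, and raised 8 and lowered 3 of the hydrolases. The difference of responses was called above 0 for 1 subunit, ATP6V0A2 (0.22, adjusted p = 0.00903), and below 0 for 2 hydrolases.

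Among 17 other lysosomal membrane proteins, depletion with DMSO raised 3 and lowered 7, SLC17A5, the sialic acid exporter, by -0.47 (adjusted p = 3.41e-06). NPC1, the cholesterol exporter of the lysosome, was lower by -0.36 with PD98059 without histidine (adjusted p = 7.38e-08). Among 16 genes of amino acid sensing at the lysosome, depletion with DMSO raised 1 and lowered 7, and depletion with PD98059 raised 0 and lowered 8. FNIP2, a partner of folliculin, changed by -0.36 with DMSO (adjusted p = 4.92e-07), and RPTOR, the scaffold of mTORC1, rose by 0.17 (adjusted p = 0.000295). Without histidine PD98059 raised 2 and lowered 6 of the membrane proteins, and raised 5 and lowered 2 of the sensing genes. The difference of responses was called below 0 for 2 membrane proteins and above 0 for 1 sensing gene, FNIP2 (0.28, adjusted p = 0.00264). The medians of the V-ATPase, hydrolase, membrane and sensing lists for depletion with DMSO were -0.043, -0.019, -0.024 and -0.105, against 0.026 over all genes. Finally, 11 of the members, MAP1LC3B among them, have been reported to depend on ATF4 or its partner CHOP in mouse fibroblasts. Depletion with DMSO raised 4 of these 11 and lowered 3, where 14.8% of all genes were higher and 18.4% lower. Their differences with DMSO ran from -0.26 to 0.96, with a median of -0.001. Depletion with PD98059 raised 3 and lowered 4, where 12% of all genes were higher and 15.3% lower.

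**Figure D4:**
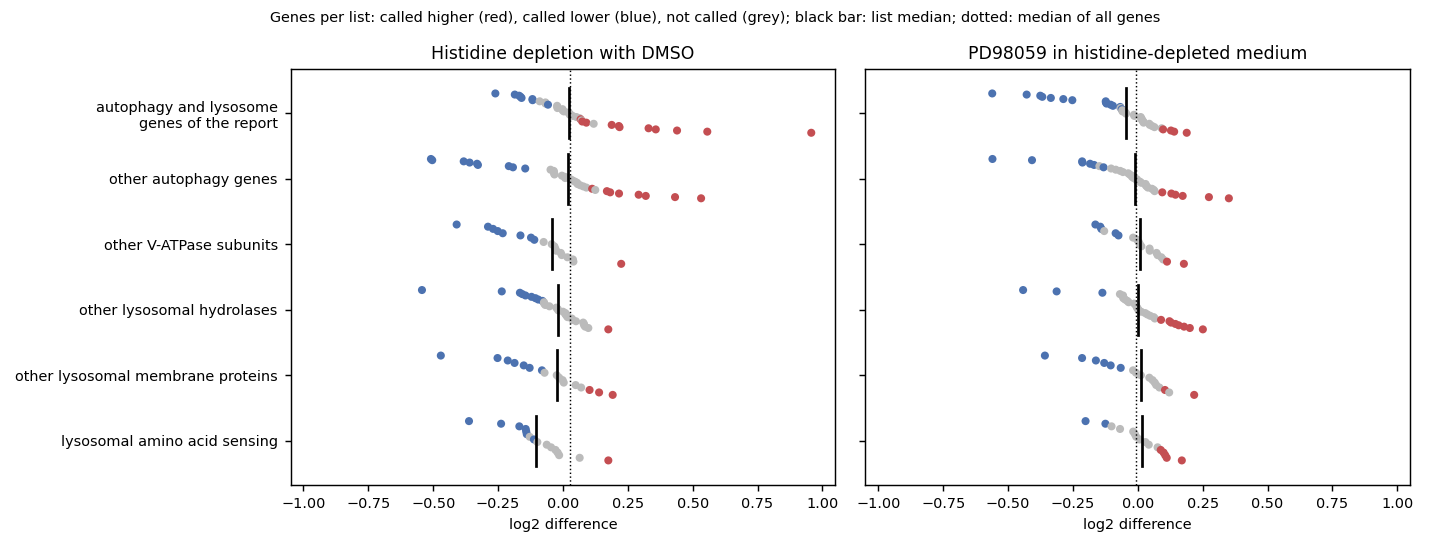
Log2 difference of each gene (point) for depletion with DMSO (left) and for PD98059 without histidine (right), by list, with called genes in red (higher) and blue (lower), list medians as black bars and the median of all genes dotted. For depletion with DMSO the V-ATPase list has 1 higher and 8 lower of 19 measured genes.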

How the data were processed

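RNA of 16 HepG2 cultures was measured on 1-colour Affymetrix arrays, 4 for each of 4 groups. The authors deposited a table of log2 values with a column for each array, and per the submitters' processing notes it was made with RMA and Partek 6.6 (build hg19), whose settings are not given in the sources used here. RMA usually brings arrays to a common distribution and compresses small signals. Without scanner files, neither background nor scan batches could be examined here, and precision is limited by the 4 arrays a group. Of 70459 rows, 23780 had 1 gene symbol in the platform annotation, 1543 had several and 45136 had none or were not listed. A symbol with several rows (479 symbols) was represented by its row of highest mean. No pair of arrays was identical, and within a group r was 0.996 to 0.998.

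The 16 arrays entered 1 model with limma 3.58.1 in R 4.3.3, with a mean for each group and Benjamini-Hochberg adjustment over 22464 genes, and the fit was tested on simulated data. The difference of responses is depletion with PD98059 minus depletion with DMSO. The members, lists and rules were chosen with earlier results of these data known. Every array is given for members with the 12 largest differences among called members whose groups did not overlap and for members called in the difference of responses. From each other list up to 4 genes with the lowest adjusted p in a comparison could be named. Replicate numbers were taken as pairing samples only if every same-numbered pair of arrays deviated together with r over 0.1. This held for 9 of 24 pairs (r from -0.32 to 0.51), so the main fit has no block. Alternatives changed the samples (each array left out, only the 8 arrays of a comparison), the model (replicate block, array weights, intensity trend with robust variance), the values (a second quantile normalization, equal array medians), the features (dim genes removed, rows of a symbol averaged, all rows tested) and the threshold (adjusted p under 0.01). Promoter matches come from RefSeq, build GRCh38.p14, and are descriptions.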

Additional observations from a re-analysis of the deposited data

Results flagged for a closer look

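In 11 of the 144 combinations of a member and a group, 1 array lay farther from the other 3 than Dixon's test allows for 4 samples, where chance gives about 1 in 20. The share of the group's range that lay in the gap, which Dixon's 95% value limits, was 0.879 for GABARAPL2 (replicate 1 highest, DMSO in complete medium, at 10.73 against 10.56 to 10.58) and 0.883 for BECN1 on the same array. It was 0.968 for BECN1 (replicate 2 highest) and 0.909 for ATG101 (replicate 3 highest) with DMSO without histidine. In DMSO in complete medium, replicate 2 was lowest for UVRAG (0.864) and for ATG12 (0.918). In PD98059 in complete medium, replicate 1 was lowest for CTSB (0.841) and highest for ATP6V1H (0.983). In PD98059 without histidine, replicate 1 was highest for WIPI2 (0.873) and lowest for ATP6V0D1 (0.839), and replicate 3 was lowest for ATG5 (0.865, at 8.58 against 8.76 to 8.78).

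The response to depletion differed between treatments in 8 members by limma's test of the difference (response with PD98059 minus that with DMSO). The value was -0.49 for MAP1LC3B, -0.36 for GABARAPL1 and for TFE3, -0.34 for ATG2A, -0.27 for ULK1, -0.18 for SQSTM1, -0.15 for CTSL and -0.11 for WIPI2.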

How the results depend on the processing

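Of the 73 calls of members over the 5 comparisons, 48 were kept under every alternative run and 25 were lost under at least 1, and no called value changed sign. For depletion with PD98059, a fit of its own 8 arrays called 11 members against 18. Array weights called 16 against 10 for PD98059 in complete medium and 13 against 8 for the difference of responses, and an adjusted p under 0.01 left 11 of 18 for PD98059 in histidine-depleted medium. The other counts stayed within 1.5 times. With each array left out in turn, the counts ran from 14 to 23 and 14 to 18 for depletion with DMSO and PD98059, 9 to 12 and 14 to 20 for PD98059 in complete and depleted medium, and 6 to 9 for the difference of responses. With the replicate number as a block, the counts were 20, 20, 11, 18 and 7 in the same order. Of 24 same-numbered pairs of arrays 9 had r over 0.1 and 9 correlated best with their own number, so whether the numbers mark shared incubations is not settled. Fits of their own 8 arrays called 23 members against 19 for depletion with DMSO. For PD98059 such fits called 10 against 10 in complete medium and 12 against 18 in depleted medium. The cause of these shifts was not tested. In the difference of responses, MAP1LC3B, GABARAPL1, TFE3, ATG2A, ULK1 and SQSTM1 were called under every alternative, and WIPI2 and CTSL were not. Differences near the SDs of the members cannot be ranked with 4 arrays a group.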
